A study of Homo sapiens with 16 samples.

Results

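An LX-2 line labelled Fn14 knockout was compared with one labelled Fn14alpha knockout, and both are called by those labels below. LX-2 is an established human line with the traits of hepatic stellate cells, which lay down scar matrix in the liver when activated. The comparison took every gene that passed a filter on low counts: 16029 of the 61806 genes in the deposited table, in 4 libraries labelled Fn14 knockout and 4 labelled Fn14alpha knockout. Both are CRISPR/Cas9-derived LX-2 lines, and both were cultured for 24 h in reduced-serum medium and then given the PBS vehicle for 2 h, so no library of the comparison had received TWEAK. Wild-type LX-2 cells given PBS (4 libraries) or TWEAK at 100 ng/mL (4 libraries) were not part of the contrast, but entered the count filter and the estimate of the spread. Below, wild type means those given PBS, as a reference level. With the 8 knockout libraries alone 15143 genes were tested and 8832 called, against 16029 and 9489 here. The sources used here do not say whether either knockout line is clonal. A line derived apart from the other can also differ from it in ways other than Fn14, and the design cannot tell these apart. The replicates are called biological with no word on how they were kept apart. The p-values therefore measure only how far these libraries spread, which may be technical. Total counts ran from 14092328 to 16417325 in the Fn14 knockout and from 13741703 to 15300005 in the Fn14alpha knockout.

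Fn14 is a small receptor of the TNF receptor superfamily, encoded by TNFRSF12A, and its known ligand is the cytokine TWEAK, encoded by TNFSF12. Its short cytoplasmic tail binds TRAF adaptors, which hold cIAP ubiquitin ligases. Signalling from such receptors frees NF-kB dimers from IkB proteins in the canonical branch, and lets the kinase NIK drive processing of the NFKB2 product in the non-canonical branch. NF-kB then switches on chemokines, cytokines, adhesion molecules and its own inhibitors. In stellate cells this programme accompanies the inflammatory side of activation, beside the matrix-producing and contractile side. The title of the series concerns a splice form of Fn14 that acts without the ligand. The comparison sets a line labelled for loss of Fn14 against one labelled for loss of Fn14alpha. It cannot isolate what receptor forms left after loss of Fn14alpha contribute, since the lines can differ in other ways.

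The targeted gene was measured first. TNFRSF12A (ENSG00000006327) lies on the plus strand of chromosome 16, from 3018445 to 3022383 in GRCh38. It was at 34.9, 35.6, 34.5 and 29.5 FPKM in the 4 Fn14 knockout libraries, FPKM being fragments counted per gene, scaled for gene length and library depth. In the Fn14alpha knockout libraries it was at 56.0, 64.7, 64.5 and 51.8 FPKM. All 4 Fn14 knockout libraries lay below all 4 Fn14alpha knockout libraries, and all 8 lay below wild type (128 ± 6.29 FPKM, SD, n = 4). The log2 fold change, Fn14 knockout minus Fn14alpha knockout here and throughout, was −0.67 ± 0.08 (SE; edgeR quasi-likelihood test, adjusted p = 9.54e-08). By that fit 62.9% of the level in the Fn14alpha knockout was left. Permuting the 4 and 4 libraries exactly, two-sided, gave p = 0.0286, the smallest that the 70 splits can give.

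The counts sum over every transcript of the gene, so they do not show which forms were lost or remained in either line, and an edited allele can still yield mRNA. The GENCODE annotation of GRCh38 lists 7 transcripts. TNFRSF12A-201 has 4 exons and 1033 bases, and TNFRSF12A-202 has 3 exons and 881 bases. The coding exon that the longer one has and the shorter one lacks is shown because it is what separates these annotated forms. The sources used here do not say which transcript the labels mean by Fn14alpha. The exon lies at chr16:3021215-3021319 on the plus strand and has 105 bases:
TNFRSF12A exon: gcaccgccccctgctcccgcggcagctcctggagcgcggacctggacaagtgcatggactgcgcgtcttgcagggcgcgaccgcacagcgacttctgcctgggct

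Of 10 tested genes beside TNFRSF12A on chromosome 16, 4 were higher and 4 lower, where 30.7% of all genes tested were higher and 28.5% lower. HCFC1R1 rose from 11.6 to 15.2 FPKM over the 4 Fn14alpha knockout libraries to 63.2 to 93.7 FPKM over the 4 of the Fn14 knockout (2.75 ± 0.13 on the log2 scale, edgeR adjusted p = 3.52e-14), and THOC6, a subunit of the mRNA export complex THO, from 12.3 ± 0.999 to 28.9 ± 4.81 FPKM. Wild type had 13.2 FPKM of HCFC1R1 and 17.7 FPKM of THOC6. The Wnt co-receptor gene KREMEN2 fell by 2.07 and the membrane protease gene MMP25 by 3.19 on the log2 scale. Whether editing at the locus has a part in these differences was not tested.

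The knockouts differed across much of the transcriptome. edgeR called 9489 of 16029 genes at a false discovery rate of 0.05, or 59.2%. In the Fn14 knockout 4923 (30.7%) were higher and 4566 (28.5%) lower, so 51.9% of the calls were higher. Past 1 log2 unit in either direction there were 958 higher genes (5.98%) and 1487 lower genes (9.28%), 15.3% of those tested. All 4 libraries of one group lay above all 4 of the other, in FPKM, for 8243 genes (51.4%). The split depends on scaling: with library totals in place of TMM factors, 3666 were higher and 6166 lower (37.3% higher), and the median of all genes moved from 0.0 to −0.15. With limma on log2(FPKM + 0.1) and on log2(FPKM + 1) 37.0% and 37.2% of the calls were higher. FPKM levels below therefore lie about 0.15 log2 units lower in the Fn14 knockout than the edgeR values beside them.

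Principal components were taken over the 8 libraries. The first held 77.5% of the variance and parted the groups (−57.3 to −55.3 against 55 to 57.9). On the second component (7.07%) Fn14 knockout replicate 1 lay at −37.7 and the other 7 libraries at −9.26 to 22.2. Without that library 9546 genes were called. With so many genes called, a list of genes is read below against the shares over all genes tested.

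**Figure D1:**
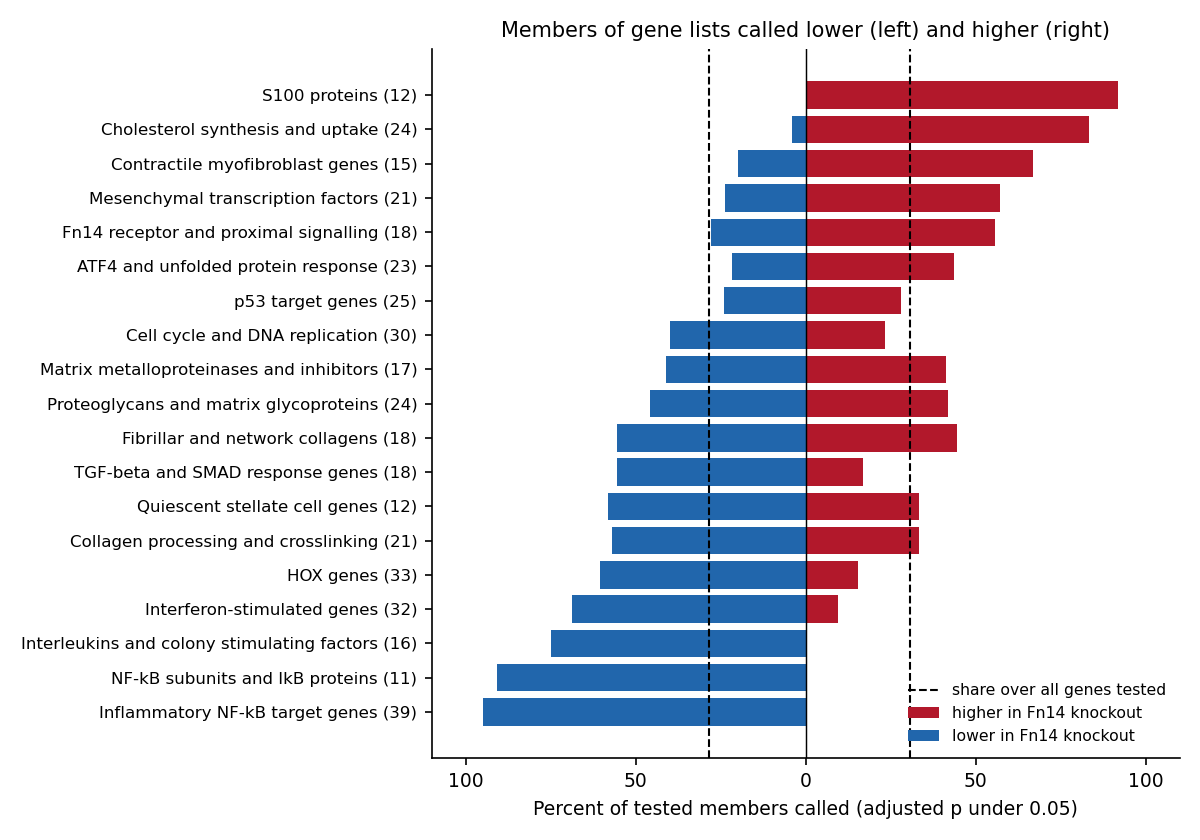
Percent of the tested members of selected gene lists called lower (bars to the left) and higher (bars to the right) in the Fn14 knockout than in the Fn14alpha knockout, with the number tested in brackets. The dashed lines are the shares over all genes tested, 28.5% lower and 30.7% higher; of the lists plotted, the NF-kB lists reach furthest to the left and the S100 and cholesterol lists furthest to the right.

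Transcripts of the receptor's proximal machinery moved in both directions. Of 18 genes tested 10 were higher and 5 lower (median log2 fold change 0.29). The largest decrease was in BIRC3, which encodes cIAP2, a ubiquitin ligase carried by TRAF complexes and itself an NF-kB target. It was at 0.50, 0.52, 0.90 and 0.87 FPKM in the Fn14 knockout and at 6.27, 5.28, 5.62 and 6.36 FPKM in the Fn14alpha knockout. The ranges were far apart, and every Fn14alpha knockout library lay above the wild-type mean of 4.44 FPKM (−2.94 ± 0.13, edgeR adjusted p = 7.20e-15). The adaptor gene TRAF1, another NF-kB target, fell by 1.19, TRAF3, which restrains NIK, by 0.68, and BIRC2, which encodes cIAP1, by 0.46 on the log2 scale.

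Several kinase genes of the same list were higher. MAP3K14, which encodes NIK, rose from 5.49 ± 0.338 to 8.55 ± 0.880 FPKM (SD, n = 4; 0.79 ± 0.10, edgeR adjusted p = 3.33e-07). IKBKG, the regulatory subunit of the IkB kinase, rose by 1.05 and IKBKB, a catalytic subunit, by 0.23. The TAK1 kinase gene MAP3K7 rose by 0.54 and its binding partners TAB1 and TAB3 by 0.45 and 0.93. RIPK1, a scaffold kinase of TNF receptor complexes, rose by 0.74, TRAF5 by 0.68 and TRAF2, the adaptor that holds the cIAPs, by 0.44. TNFSF12 itself was at 5.71 ± 0.347 against 4.97 ± 0.546 FPKM, a difference of 0.35 that was called although its groups overlapped. The kinase subunit CHUK (5.59 against 6.22 FPKM), TRAF6 (−0.09) and TAB2 (−0.14) were not called. IKBKG and TAB3 lie on the X chromosome, whose genes were higher as a body, as given below. With library totals, and with limma on FPKM, TNFSF12 (adjusted p = 0.0575, its alternatives spanning 8.27e-04 to 0.805) and IKBKB (adjusted p = 0.283, alternatives spanning 5.96e-04 to 0.283) did not pass, the p-values being those with library totals. TAB2 passed as lower in both (−0.29 with library totals) and without Fn14 knockout replicate 4 (−0.22), and TRAF6 with library totals (−0.24). When the median of the 50 genes around it was taken from each gene (called local centring below), TNFSF12 (0.03, adjusted p = 0.805) and IKBKG (0.23, adjusted p = 0.142, alternatives spanning 2.68e-13 to 0.142) did not pass.

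NF-kB subunits and IkB proteins were lower almost throughout. Of 11 tested 10 were lower and 0 higher, with a median of −0.98 against 0.0 for all genes. RELB, the partner of processed NFKB2 in the non-canonical branch, was at 4.38, 3.01, 3.86 and 3.12 FPKM in the Fn14 knockout and at 14.6, 16.3, 16.9 and 14.1 FPKM in the Fn14alpha knockout. The Fn14alpha knockout stayed close to wild type (17.2 FPKM), and the groups did not come near each other (−1.96 ± 0.10, edgeR adjusted p = 6.68e-14). NFKB2 fell from 13.2 ± 0.243 to 4.73 ± 0.279 FPKM (−1.34 ± 0.07). NFKB1 fell by 0.34 and REL, a subunit of low level here, by 0.98. REL did not pass with local centring (−0.48, adjusted p = 0.0761, its alternatives spanning 7.63e-08 to 0.0761).

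RELA, the main transactivating subunit of the canonical branch, was the 1 gene of that list that was not called. Its level was 21.5 ± 2.00 FPKM in the Fn14 knockout and 21.7 ± 1.28 FPKM in the Fn14alpha knockout (0.14 ± 0.09, edgeR adjusted p = 0.207). Among the inhibitors, NFKBIA, which encodes IkB-alpha, fell from 34.3 ± 1.73 to 14.7 ± 1.04 FPKM (−1.07 ± 0.07). NFKBIE fell by 0.98 and NFKBIB by 0.32, and the nuclear IkB proteins NFKBIZ, BCL3 and NFKBID fell by 1.69, 1.04 and 0.90. NFKBIB did not pass without Fn14 knockout replicate 3 (adjusted p = 0.0685) or replicate 4 (0.0719), nor with local centring (adjusted p = 0.606; its alternatives spanning 2.59e-04 to 0.606).

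Negative regulators outside the IkB family were mixed: of 9 tested 4 were lower and 3 higher, but 1 higher without Fn14alpha knockout replicate 2 or replicate 4. TNFAIP3, which encodes the deubiquitinase A20, fell from 9.01 ± 0.701 to 1.09 ± 0.210 FPKM (−2.89 ± 0.10, edgeR adjusted p = 3.07e-17). ZC3H12A, a ribonuclease that degrades cytokine mRNA, fell by 1.71 and TNIP1, a partner of A20, by 0.93. OTULIN, which removes linear ubiquitin chains, rose by 0.69.

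**Figure D2:**
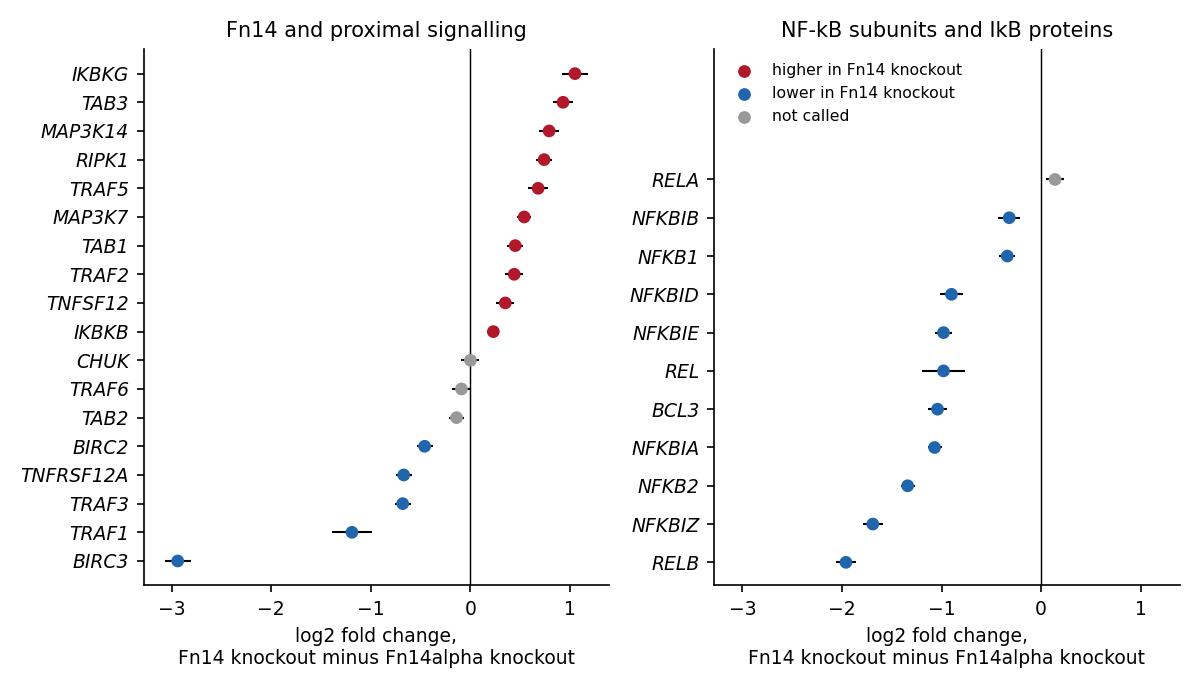
Log2 fold change (Fn14 knockout minus Fn14alpha knockout) of each tested member of the Fn14 proximal list (left) and the NF-kB and IkB list (right); bars are ± 1 SE of the edgeR fit and colour gives the call. On the left 10 genes lie above 0 and called and 5 below, on the right 10 of 11 lie below 0 and called, with RELA at 0.14.

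Inflammatory targets of NF-kB were lower almost without exception. Of 39 tested, 37 were lower and 0 higher, with a median log2 fold change of −2.89. The list overlaps the previous ones in 6 genes that feed back on the pathway, among them BIRC3, TNFAIP3 and NFKBIA. Among its secreted members are the ELR CXC chemokines, small proteins that draw neutrophils through CXCR1 and CXCR2. All 6 tested were lower in the Fn14 knockout.

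The promoters of these 6 genes, on chromosome 4, are shown because the genes moved together and share an NF-kB-type motif near the start. RefSeq (GRCh38.p14) holds promoters of all 6. Each stretch runs from 110 to 51 bases before the start on the gene's own strand, and the capitals mark GGAATTTCC:
CXCL8: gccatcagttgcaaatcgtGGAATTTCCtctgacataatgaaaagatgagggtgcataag
CXCL6: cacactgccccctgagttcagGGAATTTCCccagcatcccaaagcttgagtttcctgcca
CXCL5: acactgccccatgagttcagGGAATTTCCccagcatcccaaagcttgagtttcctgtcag
CXCL1: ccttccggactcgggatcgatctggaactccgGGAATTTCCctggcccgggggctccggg
CXCL3: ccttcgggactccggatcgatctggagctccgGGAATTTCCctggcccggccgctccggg
CXCL2: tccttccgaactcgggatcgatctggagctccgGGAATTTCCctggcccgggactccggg

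The stretches lie at chr4:73740459-73740518 (CXCL8, plus strand), chr4:73836568-73836627 (CXCL6, plus), chr4:73998728-73998787 (CXCL5, minus), chr4:73869283-73869342 (CXCL1, plus), chr4:74038740-74038799 (CXCL3, minus) and chr4:74099246-74099305 (CXCL2, minus). The first base of the motif lay 77 to 91 bases before the start in all 6. Over both strands of promoters of the same length (250 bases before to 50 after the start), GGAATTTCC occurred in 162 of 35116 (0.461%), and in 70 of 11359 (0.616%) for genes tested. The motif was chosen because these 6 promoters hold it, so their matches are no result. Of the 27 called-lower inflammatory targets whose promoter is listed, 8 held it: these 6, ICAM1 and NFKBIA. Among genes lower by at least 1 on the log2 scale 13 of 944 with a listed promoter (1.38%) held GGAATTTCC. Those 8 are among the 13, and with them the 6 that gave the motif, so the choice of motif raised that share. Among genes higher by as much 0.591% of 677 held it, and these shares are not compared. A match is a string of letters, not a measured binding site.

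CXCL8, which encodes interleukin-8, fell furthest of the 6. It was at 0.23, 0.59, 0.27 and 0.51 FPKM in the Fn14 knockout and at 69.9, 64.9, 86.1 and 73.6 FPKM in the Fn14alpha knockout. Every Fn14 knockout library lay far below every Fn14alpha knockout library. All Fn14alpha knockout libraries lay in turn below the wild-type mean (107 ± 14.5 FPKM). The log2 fold change was −7.34 ± 0.18 (edgeR adjusted p = 6.66e-19), or 161-fold lower.

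CXCL6 was at 0.20, 0.09, 0.07 and 0.12 FPKM against 12.01, 11.6, 13.8 and 13.8 FPKM (−6.55 ± 0.20). CXCL1 was at 1.03, 0.76, 1.41 and 0.60 FPKM against 45.0, 48.6, 52.6 and 47.4 FPKM (−5.54 ± 0.14). In neither gene did a single library approach the other group. CXCL3 fell from 11.5 ± 0.590 to 0.555 ± 0.129 FPKM (−4.21 ± 0.11) and CXCL2 from 12.4 ± 1.27 to 0.850 ± 0.123 FPKM (−3.70 ± 0.13). CXCL1, CXCL2 and CXCL3 are close paralogs, as their promoters show, and the counting may have split their reads. CXCL5 differed least, at 4.87 ± 0.658 against 25.6 ± 1.62 FPKM (−2.24 ± 0.09, edgeR adjusted p = 2.37e-16), and its level in the Fn14alpha knockout was itself under all 4 wild-type libraries (285.8 to 324.6 FPKM).

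Of the 4 other chemokines tested 3 were lower and 1 higher, and CCL20 is also on the inflammatory target list. CCL20, which draws lymphocytes and dendritic cells through CCR6, was at 0.120 ± 0.0658 against 2.16 ± 0.374 FPKM (−3.94 ± 0.30, edgeR adjusted p = 5.13e-11). CXCL16, a membrane-bound chemokine, fell from 7.71 ± 0.448 to 0.780 ± 0.187 FPKM, with wild type in between at 3.88 FPKM. CCL5 had 1 count over the Fn14 knockout libraries against 20, a ratio of 19.0 with a 95% counting interval of 3.03 to 786, which covers counting error only. The exception was CXCL12, the ligand of CXCR4 and a chemokine of stromal cells. It was at 2.02, 2.21, 2.28 and 2.08 FPKM in the Fn14 knockout and at 0.61, 0.49, 0.73 and 0.40 FPKM in the Fn14alpha knockout. All Fn14 knockout libraries were higher (2.10 ± 0.15, edgeR adjusted p = 1.21e-11).

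**Figure D3:**
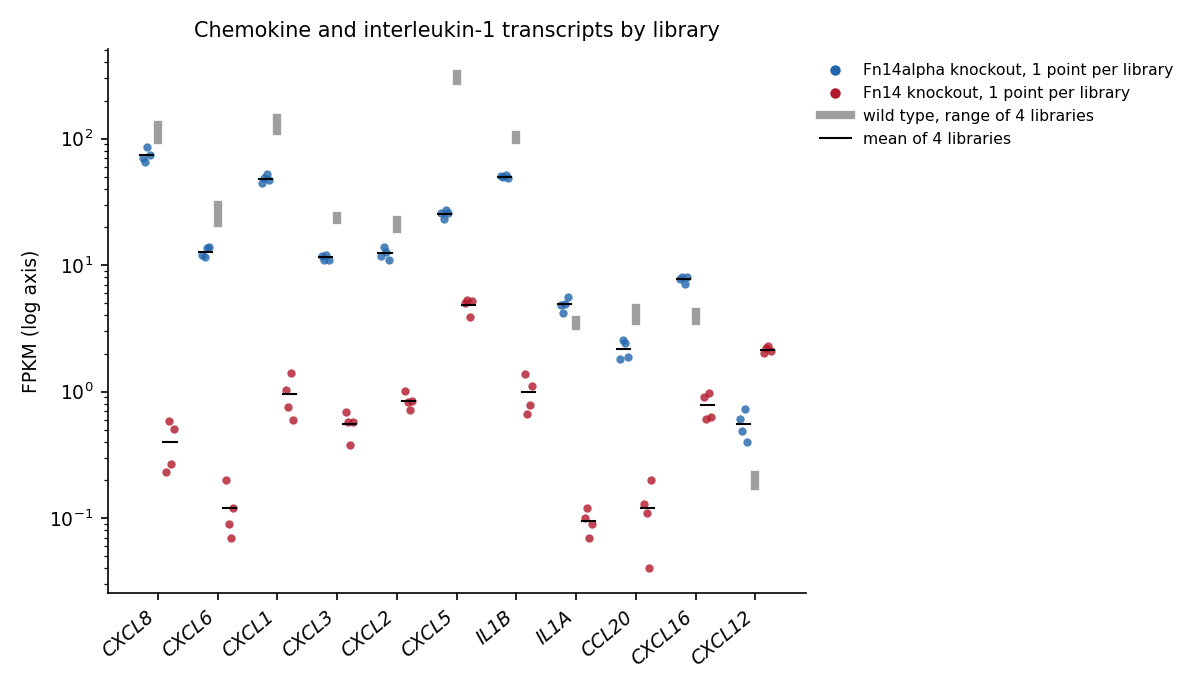
FPKM on a log axis of chemokine and interleukin-1 transcripts; each point is 1 library, black lines are means of 4 and grey bars span the 4 wild-type libraries. The Fn14 knockout (red) lies below the Fn14alpha knockout (blue) in every library for each gene shown but CXCL12, where it lies above.

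Cytokines followed the same direction. Of 16 interleukins, IL-6 family cytokines and colony stimulating factors tested, 12 were lower and 0 higher (median −1.16). Without Fn14alpha knockout replicate 4, 1 was higher. The list shares genes with the inflammatory targets above, IL1A and IL1B among them, so it is not a separate result. IL1B, the main secreted form of interleukin-1, was at 1.38, 0.67, 0.78 and 1.11 FPKM in the Fn14 knockout and at 50.8, 49.7, 51.4 and 48.7 FPKM in the Fn14alpha knockout, with no overlap (−5.52 ± 0.11, edgeR adjusted p = 4.16e-21). IL1A fell from 4.88 ± 0.585 to 0.0950 ± 0.0208 FPKM (−5.45 ± 0.21). CSF1, the macrophage growth factor, fell by 1.16 on the log2 scale and IL32, whose gene lies beside TNFRSF12A, by 1.30, from 36.0 ± 2.61 to 13.2 ± 1.38 FPKM.

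ICAM1 and VCAM1, adhesion molecules that capture leukocytes, are members of the inflammatory target list. ICAM1 was at 0.99, 1.36, 1.67 and 1.04 FPKM in the Fn14 knockout against 47.9, 44.1, 47.3 and 43.7 FPKM, the latter at the wild-type level of 43.9 (−5.03 ± 0.12, edgeR adjusted p = 5.65e-20). VCAM1 had 4 counts in all in the Fn14 knockout and was at 6.31 ± 0.238 FPKM in the Fn14alpha knockout, above its 1.59 ± 0.136 FPKM in wild type (−8.88 ± 0.22, edgeR adjusted p = 6.05e-20; −10.16 without Fn14 knockout replicate 2). With 4 counts in a group, that SE is smaller than counting error alone. For VCAM1 the Fn14alpha knockout was the highest of these lines and the Fn14 knockout the lowest.

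Complement genes moved both ways, 6 higher and 6 lower of 16 tested. That is 37.5% each way, where 30.7% of all genes tested were higher and 28.5% lower. C3, the central component of the cascade, was at 0.02, 0.02, 0.03 and 0.01 FPKM against 3.06, 3.10, 2.82 and 2.77 FPKM, so that the Fn14 knockout held 12 counts in all against 1982 (−7.24 ± 0.19). SERPING1, the C1 inhibitor, had 8 counts in the Fn14 knockout against 238 and fell by 4.74 on the log2 scale, or by 6.95 without Fn14 knockout replicate 4. The protease gene C1S fell by 0.98. The higher ones included the membrane regulator CD59 (0.61), clusterin (CLU, 0.93) and C1QBP (0.76), a mitochondrial protein that binds C1q.

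Interferon-stimulated genes included 22 lower and 3 higher genes of 32 tested (median −0.74). OAS3, a sensor of double-stranded RNA, fell from 1.34 ± 0.0483 to 0.632 ± 0.0506 FPKM (−0.93 ± 0.09, edgeR adjusted p = 1.98e-09). IFI44 fell by 3.28 and IFITM1, which blocks virus entry, by 1.92. TRIM22 rose by 1.26. Of 17 antigen presentation genes 8 were lower and 3 higher: the peptide transporter TAP1 fell by 1.06 and the immunoproteasome subunit PSMB9 by 0.88, whereas B2M, the light chain of class I molecules, rose from 279 ± 4.63 to 445 ± 46.0 FPKM.

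Among the 15 largest decreases and 15 largest increases that met the rule for named genes, several had 3 counts or fewer in all in 1 group. KIRREL2, an immunoglobulin-family membrane protein, was at 4.43 ± 0.482 FPKM in the Fn14alpha knockout and had 0 counts in the Fn14 knockout, at least 279-fold lower with a floor of 3 counts over the group. The neuronal tubulin gene TUBB4A and the gene ARHGDIG were likewise at 0 counts, at least 150-fold and at least 131-fold lower. The long noncoding RNA UCA1 had 2 counts against 1238 (ratio 587, 95% counting interval 162 to 4850). The homeobox gene TLX1 had 1 count against 614 (ratio 583, interval 104 to 23000), that count being in Fn14 knockout replicate 3. The protocadherin pseudogene PCDHB17P had 2 against 423 (ratio 201, interval 55.2 to 1660), and reads of its paralogs may be among them.

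TBX1, a T-box factor of pharyngeal development, fell from 4.67 ± 0.344 to 0.0225 ± 0.0171 FPKM (−7.54 ± 0.29), where wild type had 0.565 FPKM. The elongation factor gene EEF1A2 fell by 7.20, the junctophilin gene JPH3 fell by 7.16 (−6.50 with local centring), DPYSL4 fell by 7.14 (−7.92 without Fn14 knockout replicate 3), PRXL2A fell by 7.11 and SHISA3 fell by 6.98. SHISA3 was at 0.12, 0.13, 0.24 and 0.27 FPKM against 26.6, 25.7, 24.98 and 30.3 FPKM. Wild type held 1.65 ± 0.254 FPKM of SHISA3, far under the Fn14alpha knockout. VCAM1, CXCL8 and C3, given above, complete these 15.

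In the other direction ADAMTS2, the protease that cuts the N-propeptide from fibrillar procollagens, had 2014 counts in the Fn14 knockout (3.65 ± 0.235 FPKM) and 1 in the Fn14alpha knockout. The ratio was 2120 with a 95% counting interval of 381 to 83900, and wild type was at 0.0100 FPKM. The phosphatase gene PTPN20 had 607 counts against 0, at least 213-fold higher. The epithelial and myeloid alarmins S100A8 and S100A7 had 174 and 163 counts against 0, at least 61.1-fold higher for S100A8 and at least 57.3-fold for S100A7, and S100A9 had 200 against 3 (ratio 70.3, interval 23.7 to 344).

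Other genes among these 15 increases had more counts in the lower group. ANPEP, the aminopeptidase CD13, was at 8.87, 10.1, 11.2 and 9.75 FPKM in the Fn14 knockout and at 0.08, 0.03, 0.07 and 0.15 FPKM in the Fn14alpha knockout. Wild type lay between them, at 2.83 ± 0.520 FPKM (7.06 ± 0.20, edgeR adjusted p = 5.63e-19). NGFR, the p75 neurotrophin receptor found on stellate cells, rose from 1.96 ± 0.269 to 33.0 ± 2.10 FPKM (4.23 ± 0.11), and wild type was at 1.47 FPKM. The cation exchanger gene SLC24A3 rose by 4.41 (3.78 with local centring), TNFAIP8L3 by 3.87, the junction protein gene AJAP1 by 3.83 and the keratin gene KRT6A by 3.79. TRBC2, a T-cell receptor constant segment, rose by 4.82, although CD3E had 0 counts in both groups.

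Collagen VI, a beaded-filament collagen of the pericellular matrix, was higher in all 3 chains tested. COL6A3 was at 42.9, 54.7, 53.9 and 57.3 FPKM in the Fn14 knockout and at 1.30, 1.27, 1.12 and 1.38 FPKM in the Fn14alpha knockout. The gain took this chain from a low level, near that of wild type (1.71 FPKM), to one still under its partners (5.51 ± 0.12, edgeR adjusted p = 5.65e-20). COL6A1 rose from 156 ± 3.33 to 199 ± 8.45 FPKM (0.50 ± 0.06) and COL6A2 from 103 ± 4.21 to 127 ± 12.8 FPKM (0.45 ± 0.07).

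The fibrillar and network collagens split, 8 higher and 10 lower of 18 tested, with none uncalled. COL1A1, the major chain of collagen I, was at 193, 205, 192 and 193 FPKM against 127, 117, 116 and 118 FPKM, all libraries higher (0.86 ± 0.06, edgeR adjusted p = 7.72e-12). COL5A1 rose by 0.90 and the anchoring-fibril collagen gene COL7A1 by 0.78. COL3A1, which encodes collagen III, fell from 17.9 ± 1.20 to 8.33 ± 0.660 FPKM (−0.95 ± 0.07), and COL8A1 fell by 2.18. COL5A3 had 5 counts in the Fn14 knockout against 111 and fell by 4.27, or by 5.88 without Fn14 knockout replicate 1. With local centring 3 rather than 8 were higher, and COL7A1 did not pass (0.15, adjusted p = 0.135, its alternatives spanning 8.15e-20 to 0.135).

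Enzymes that process and crosslink collagen included 12 lower and 7 higher genes of 21 tested. LOX, the copper-dependent oxidase that starts crosslinking, was at 5.98, 7.04, 6.59 and 8.33 FPKM against 23.04, 19.0, 21.0 and 23.9 FPKM, without overlap (−1.49 ± 0.09, edgeR adjusted p = 1.01e-12). Its relative LOXL1 fell by 1.65 and TLL1, a procollagen C-proteinase, by 4.23. The 7 higher ones included ADAMTS2, given above, the lysyl hydroxylase gene PLOD2 (0.63) and CRTAP (0.67), a subunit of the prolyl 3-hydroxylase complex. CRTAP turned to −0.24 (adjusted p = 0.00444, its alternatives spanning 1.45e-21 to 0.00444) with local centring on chromosome 3.

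Among proteoglycans and matrix glycoproteins 10 of 24 were higher and 11 lower. SPARC, a collagen-binding matricellular protein, rose from 99.4 ± 2.93 to 218 ± 12.6 FPKM (1.28 ± 0.06, edgeR adjusted p = 3.15e-15). THBS1, an activator of latent TGF-beta, rose by 1.69 and the basement membrane gene FBLN2 by 2.03 (1.35 with local centring). Fibronectin (FN1), chosen after its values were seen, was at 326, 450, 459 and 501 FPKM against 205, 174, 162 and 177 FPKM, with the lowest Fn14 knockout library, replicate 1, still above the others (1.42 ± 0.12). The small proteoglycan gene BGN fell from 6.88 ± 0.413 to 0.295 ± 0.134 FPKM (−4.37 ± 0.22), FBLN5, needed for elastic fibres, by 3.28 and EFEMP1 by 1.38.

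Of 17 metalloproteinases and TIMPs 7 were higher and 7 lower, 41.2% each way against 30.7% and 28.5% over all genes tested. Their median was 0.16, or −0.17 without Fn14 knockout replicate 1. MMP2, gelatinase A, was at 21.4, 22.6, 22.0 and 20.5 FPKM in the Fn14 knockout and at 1.03, 1.02, 0.78 and 0.85 FPKM in the Fn14alpha knockout (4.70 ± 0.10, edgeR adjusted p = 1.50e-20). The groups lay on either side of wild type, at 9.31 ± 0.894 FPKM. The NF-kB-responsive interstitial collagenase MMP1 fell from 11.8 ± 0.486 to 0.802 ± 0.193 FPKM (−3.74 ± 0.13) and gelatinase B, MMP9, from 8.32 ± 0.674 to 2.72 ± 0.316 FPKM (−1.47 ± 0.10). The inhibitor TIMP1 rose from 79.4 ± 8.45 to 207 ± 30.9 FPKM (1.54 ± 0.11; 0.80 with local centring) and TIMP2 by 0.85.

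In the plasminogen system 4 of 7 genes were lower and 2 higher, and 1 was higher without Fn14alpha knockout replicate 3, Fn14 knockout replicate 2 or Fn14 knockout replicate 3. PLAU, the urokinase activator, was at 8.28, 6.88, 5.87 and 6.60 FPKM against 45.8, 48.7, 49.6 and 46.1 FPKM, the latter at its wild-type level of 45.5 (−2.63 ± 0.08, edgeR adjusted p = 6.14e-18). SERPINB2, an inhibitor of urokinase, fell by 3.76. SERPINE2 rose by 0.32, but did not pass with local centring (0.13, adjusted p = 0.0649, its alternatives spanning 1.1e-07 to 0.0649).

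**Figure D4:**
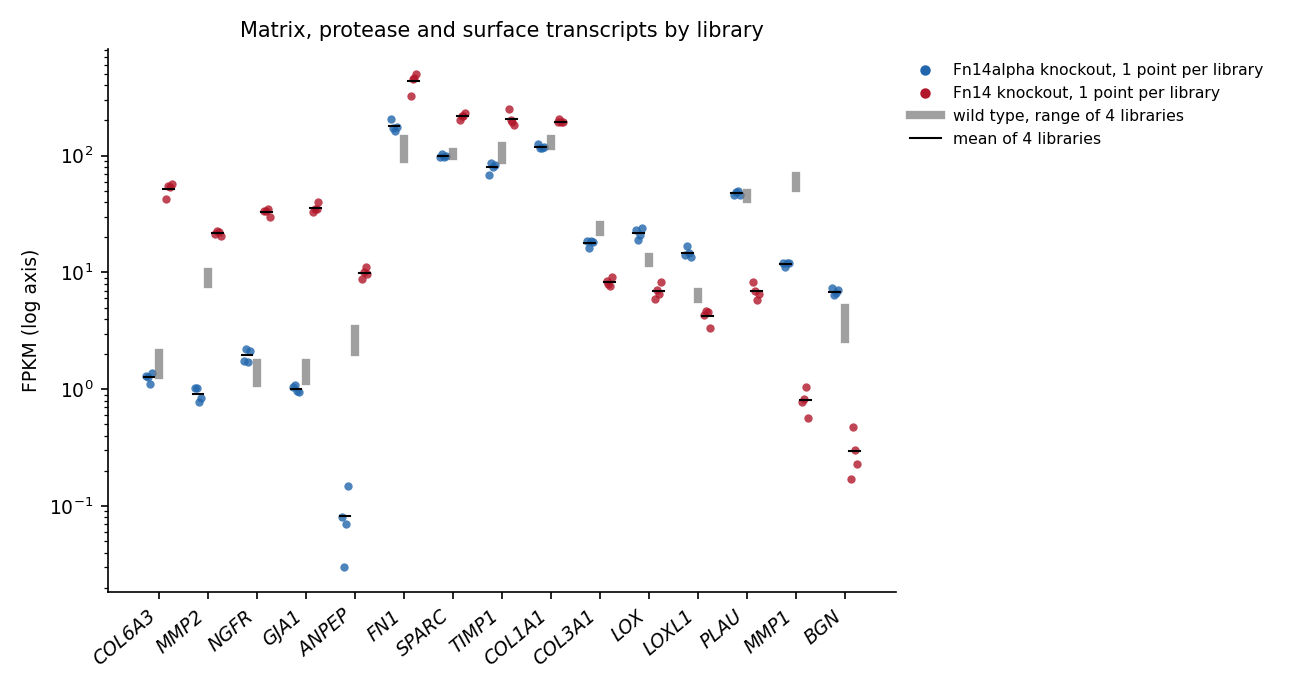
FPKM on a log axis of matrix, protease and surface transcripts; each point is 1 library, black lines are means of 4 and grey bars span the 4 wild-type libraries. From COL6A3 to COL1A1 the Fn14 knockout (red) lies above the Fn14alpha knockout (blue) in every library, and from COL3A1 to BGN below it.

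Contractile genes of the myofibroblast included 10 higher and 3 lower genes of 15 tested (median 0.59). The smooth muscle actin gene ACTG2 rose from 6.73 ± 0.486 to 28.1 ± 2.33 FPKM (2.21 ± 0.09, edgeR adjusted p = 1.44e-15), tropomyosin TPM1 by 1.16 and TAGLN2 by 1.03. The marker ACTA2, chosen after its values were seen, was low in both, at 2.79 ± 0.389 against 1.21 ± 0.158 FPKM (1.35 ± 0.15), with wild type at 2.83 FPKM. Calponin, CNN1, fell by 1.41. FHL2, a focal adhesion protein, fell by 0.47 but was at 0.10 (adjusted p = 0.215, its alternatives spanning 1.47e-12 to 0.215) with local centring on chromosome 2. Of 12 genes of quiescent stellate cells 7 were lower and 4 higher, with NGFR among the latter and the stellate cell regulator LHX2 lower by 0.79. With local centring 2 were higher.

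Ligands and receptors of the PDGF and TGF-beta families moved both ways, 6 higher and 8 lower of 18. That is 33.3% and 44.4%, against 30.7% and 28.5% over all genes tested. TGFBR2, the receptor chain that binds the ligand, rose from 14.4 ± 0.473 to 34.9 ± 4.09 FPKM (1.43 ± 0.08, edgeR adjusted p = 1.05e-13; 0.53 with local centring), and the latent TGF-beta binding protein LTBP1 rose by 1.55 and PDGFC by 1.25. The co-receptor TGFBR3 fell by 1.36 and LTBP3 and LTBP4 by 0.79 and 0.84. Genes that respond to TGF-beta through SMADs included 10 lower and 3 higher genes of 18 tested, or 6 higher with local centring. The matrix protein TGFBI fell from 68.4 ± 1.82 to 37.9 ± 1.59 FPKM (−0.70 ± 0.06) and ID3 fell by 1.08, whereas PMEPA1, a feedback inhibitor, rose by 1.60.

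Genes that respond to YAP and TEAD included 10 higher and 6 lower genes of 19 tested, or 3 lower without Fn14 knockout replicate 1. Among the lower ones CRIM1, a transmembrane binder of BMPs, fell from 139 ± 15.6 to 32.3 ± 3.75 FPKM (−1.96 ± 0.10, edgeR adjusted p = 4.09e-14) and the kinase gene NUAK2 by 1.69. TGFB2 rose by 1.05, PTPN14 by 0.89 and FSTL1 by 0.52. Of the CCN family CCN3 was at 0.520 ± 0.161 against 5.06 ± 0.503 FPKM (−3.12 ± 0.20), where wild type was at 0.530 FPKM.

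S100 proteins, small calcium-binding proteins most of which are encoded together on chromosome 1, included 11 higher and 0 lower genes of 12 tested (median 1.30). S100A16 was at 161, 132, 141 and 122 FPKM against 38.9, 43.1, 42.4 and 43.3 FPKM, all libraries higher (1.88 ± 0.09, edgeR adjusted p = 5.05e-15). S100A11 rose from 209 ± 14.4 to 471 ± 50.1 FPKM (1.32 ± 0.08). The median log2 fold change of the genes around them was 0.43, and with each gene's neighbours removed the S100 median was 0.83.

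Gap junction genes included 4 higher and 0 lower genes of 6 tested. GJA1, connexin 43, was at 33.2, 35.0, 35.2 and 40.1 FPKM in the Fn14 knockout and at 1.04, 1.09, 0.96 and 0.95 FPKM in the Fn14alpha knockout, which was near wild type (1.35 FPKM; 5.30 ± 0.10, edgeR adjusted p = 2.79e-21). GJA3 and GJC1 rose by 1.96 and 0.88. Of 16 integrin chains 6 were higher and 5 lower, or 8 lower with library totals. The 6 and 5 are 37.5% and 31.2%, against 30.7% and 28.5% over all genes tested. ITGB1, the common beta chain of matrix receptors, rose from 33.7 ± 3.24 to 90.4 ± 11.7 FPKM (1.57 ± 0.09), and wild type was at 81.1 ± 4.58 FPKM. Its collagen-binding partner ITGA10 rose by 2.39 and ITGAV by 1.15, and ITGB3 fell by 0.94.

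Wnt ligands, receptors and antagonists included 10 higher and 6 lower genes of 17 tested, or 6 higher with library totals. WNT5A, a non-canonical ligand, rose from 14.8 ± 0.792 to 26.6 ± 2.35 FPKM (0.99 ± 0.07, edgeR adjusted p = 3.44e-11), and WNT3 fell by 1.08. Of 11 BMP and activin ligands and antagonists 6 were lower and 2 higher, or 1 higher without Fn14alpha knockout replicate 2 or 4 or Fn14 knockout replicate 4, and 0 higher with library totals or with limma on FPKM. The BMP antagonist GREM1 fell from 17.3 ± 0.724 to 6.47 ± 0.378 FPKM (−1.27 ± 0.08), CHRD, another of its kind, by 2.81 (−2.17 with local centring) and the activin antagonist FST by 1.51. RGS4, which quenches Gq signalling, rose from 12.3 ± 0.895 to 40.6 ± 2.96 FPKM (1.87 ± 0.15), above a wild-type level of 2.20 FPKM.

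HOX genes, which record a fibroblast's position along the body axis, included 20 lower and 5 higher genes of 33 tested (median −0.66). HOXB9 was at 3.70, 5.61, 5.35 and 5.19 FPKM against 24.6, 23.6, 22.6 and 23.8 FPKM, without overlap (−2.10 ± 0.09, edgeR adjusted p = 3.30e-15). HOXD10 fell by 1.82, and HOXD3 had 2 counts, both in replicate 4, against 222 (ratio 105, 95% counting interval 28.8 to 875). HOXC13 rose by 1.72 and HOXB2 by 0.66. Among 21 mesenchymal transcription factors 12 were higher and 5 lower, or 3 lower with no filter on low counts. TWIST1 rose from 8.70 ± 0.647 to 16.4 ± 0.397 FPKM (1.07 ± 0.08), SNAI2 by 0.89 and TBX3 by 1.54, while SNAI1 fell by 1.57.

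Cholesterol synthesis and uptake was the metabolic list with the largest share higher, 20 of 24, with 1 lower (median 0.88). HMGCS1, the enzyme that feeds the mevalonate pathway, was at 47.4, 52.2, 48.4 and 56.7 FPKM against 22.7, 18.9, 21.5 and 21.2 FPKM (1.43 ± 0.08, edgeR adjusted p = 1.89e-13). The Fn14 knockout was close to wild type for it (46.6 ± 1.16 FPKM), and the Fn14alpha knockout was the lowest of the 3 lines. For MSMO1, a sterol oxidase, the Fn14alpha knockout was again the lowest, with 68.3 ± 2.37, 32.2 ± 3.06 and 70.7 ± 1.48 FPKM in the Fn14 knockout, the Fn14alpha knockout and wild type. SQLE, which makes squalene epoxide, rose by 1.08. The reductase gene TM7SF2 fell by 0.94, and with library totals 2 genes were lower rather than 1.

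Lists on growth and stress were mixed. Cell cycle and replication genes included 7 higher and 12 lower genes of 30 tested (median −0.05). CCND1, cyclin D1, rose from 59.8 ± 2.03 to 136 ± 5.34 FPKM (1.33 ± 0.07, edgeR adjusted p = 4.96e-14) and the polymerase clamp PCNA by 0.80, while the mitotic kinase BUB1 fell by 1.02, the licensing factor CDT1 by 1.02 and the ribonucleotide reductase subunit RRM2 by 0.91. With local centring BUB1 was at −0.31 and CDT1 at −0.28. Of 23 genes of ATF4 and the unfolded protein response 10 were higher and 5 lower, with ATF4 itself higher by 0.80 and the serine synthesis gene PSAT1 by 1.44. Of 21 NRF2 targets 9 were higher and 7 lower, or 3 higher with local centring. The microsomal glutathione transferase gene MGST1 had 1 count against 422 (ratio 400, 95% counting interval 71.5 to 15900) and the ferritin chain FTL fell by 0.77.

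The median difference varied between chromosomes, with the Y chromosome and the mitochondrial genome left out of the summary. Among genes tested at 2 or more log2 CPM (counts scaled to library depth), the median log2 fold change was 0.82 for 390 genes on X, of which 78.2% were called higher. It was 0.37 on chromosome 3, 0.34 on 12, 0.34 on 22, 0.31 on 13 and 0.27 on 9. On chromosome 2 it was −0.27, with 52.6% lower, and on chromosome 19 −0.25, with 52.4% lower and 7.06% higher. Taking the median of the 50 nearest genes from each gene left 7619 calls. Of the 9489, 5837 stayed called with their direction and 246 were called with the opposite one. The median over NF-kB targets of their neighbours' medians was −0.03, against −2.89 for the targets themselves. Whether copy number differs between the lines was not tested.

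**Figure D5:**
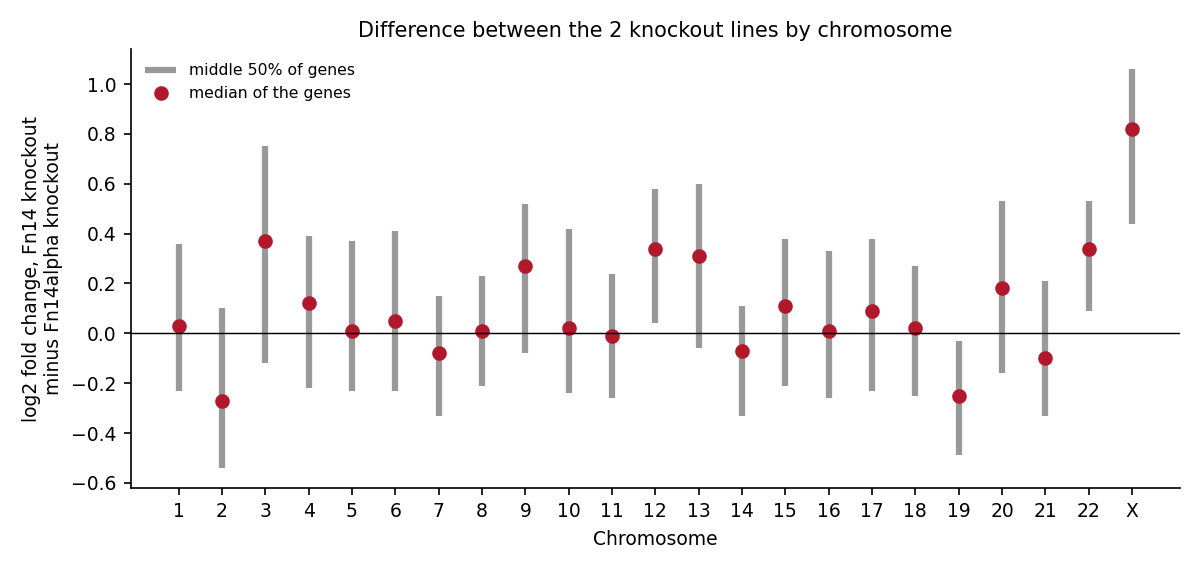
Median log2 fold change (Fn14 knockout minus Fn14alpha knockout, points) and middle 50% (bars) of tested genes with at least 2 log2 CPM, by chromosome. The Y chromosome and the mitochondrial genome are not plotted. Of those plotted X stands highest at 0.82 and chromosomes 2 and 19 lowest, at −0.27 and −0.25.

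Stellate and mesenchymal markers were present in both lines: their summed level was 1320 to 1540 FPKM in the Fn14 knockout, 685 to 719 FPKM in the Fn14alpha knockout and 954 to 1040 FPKM in wild type. VIM rose by 0.94 and THY1 by 1.41, and LRAT, which stores retinoid in quiescent cells, had 0 counts in the Fn14alpha knockout and wild type. Of markers of other cell types, hepatocyte genes summed to 7.88 to 8.68 FPKM against 7.14 to 7.96 FPKM, with ALB at 0 counts in the Fn14 knockout. Endothelial genes summed to 18.7 to 21.8 against 40.8 to 45.7 FPKM with CDH5 at 0 counts in both groups. Epithelial genes summed to 72.4 to 95.7 against 93.2 to 103 FPKM. Single epithelial markers moved both ways, 4 higher and 3 lower of 8 tested, against shares of 30.7% and 28.5% over all genes. The keratin gene KRT6A and the alarmins S100A7, S100A8 and S100A9, given above, were higher. Other epidermal genes, chosen after their values were seen, appeared with them. In the Fn14 knockout against the Fn14alpha knockout KRT1 had 208 counts against 0, KRT16 145 against 0, KRTDAP 69 against 0 and SPRR1B 67 against 1. The epidermal lipoxygenase gene ALOXE3 went the other way, with 3 against 22. Whether a trait of the line or another cell source gave these counts was not tested. Leukocyte genes summed to 1.91 to 3.00 against 2.19 to 2.85 FPKM with CD3E at 0 counts in both groups. Replication-dependent histone mRNAs, most of which lack a poly(A) tail, included 6 lower and 0 higher genes of 12 tested, with a summed level of 57.2 to 134 FPKM against 322 to 402 FPKM. H2AC6 and H2BC12, which also make polyadenylated forms, fell by 3.43 and 2.36. Mitochondrial mRNAs summed to 32500 to 52100 against 38300 to 46300 FPKM. In bulk samples fewer cells with a transcript and less of it per cell cannot be told apart.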

How the data were processed

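Poly(A) RNA-seq libraries of LX-2 cells were analysed from raw counts per gene, which the authors deposited without normalization, and the deposited FPKM values made from them. HISAT2 2.0.1, HTSeq 0.6.1, DESeq2, cutadapt 1.9.1 and FastQC 0.10.1 are listed, per the submitters' processing notes, beside the builds GRCh38.p13 and hg38. The sources used here do not state strand setting or treatment of multi-mapped reads. Counts were tested with edgeR 4.0.16 (R 4.3.3; two-sided quasi-likelihood test, TMM, filterByExpr by group, robust, all 16 libraries lending spread) for Fn14 knockout minus Fn14alpha knockout, called at a Benjamini-Hochberg adjusted p under 0.05 over 16029 genes. SE is the log2 fold change over the root of F. Where a group held few counts it was smaller than counting error alone, as for VCAM1, TBX1, C3, CXCL6, IL1A, CCL20 and ANPEP. There it does not measure the error of the fold change. Levels are FPKM (mean ± SD, 4 libraries). limma 3.58.1 and DESeq2 1.42.0 served alternatives.

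On simulated counts 62.1%, 95.5% and 100% of changes of 0.5, 1 and 2 log2 units were recovered. There 15481 of 15681 genes tested were left unchanged, only genes above 1 CPM were changed, and no regional shift was put in. In the data 59.2% of genes were called, so these rates need not hold for this contrast. Replicate pairs differed beyond sampling noise (chi-square per degree of freedom 5.92 to 39.0, or to 13.6 without Fn14 knockout replicate 1). No list was tested as a set. The members and lists were chosen with earlier results of these data known. Named genes are TNFRSF12A, all measured members of 3 pathway lists and the 15 largest called changes each way. Those changes had at least 2 FPKM in 1 group and groups apart, and genes on the Y chromosome were left out. Of each list, up to 3 called members each way and 1 uncalled were named too. Some genes that meet this rule are not reported here. Floors are 3 counts over a group and intervals are 95% exact binomial.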

Additional observations from a re-analysis of the deposited data

Results flagged for a closer look

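In 28 of 364 groups of 4 libraries looked at, 1 library stood apart from the others by Dixon's criterion. For normally spread values chance alone meets it in about 1 in 20 groups. A group with 1 count in all meets it whatever the spread. CCL5, TLX1 and MGST1 in the Fn14 knockout and ADAMTS2 in the Fn14alpha knockout were such groups. The 28 are therefore not compared with that rate. All values are FPKM, and 6 of the 28 were in Fn14 knockout replicate 1.

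That replicate was high for CD59 (43.95, others 34.79 to 35.75), PSMB9 (3.71, others 2.23 to 2.41), TWIST1 (17.03, others 16.17 to 16.29) and PCNA (424.47, others 341.63 to 349.45). It held 0.04 of CCL5 where the others had 0, and was low for RELA (18.57, others 22.29 to 22.95). In Fn14 knockout replicate 2, COL1A1 was high (204.85, others 192.47 to 193.41), as was PRXL2A (0.03, others 0.01). In replicate 3, TRAF1 was high (0.68, others 0.30 to 0.35), and TLX1 (0.03) and MGST1 (0.01) were above 0 where the others were at 0. In replicate 4, FSTL1 was high (91.72, others 86.37 to 86.94), as were SERPING1 (0.06, others up to 0.01) and HOXD3 (0.03, others 0).

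In Fn14alpha knockout replicate 1, ID3 (24.6, others 29.7 to 30.68), ATF4 (95.15, others 103.43 to 104.3) and the histone gene H2AC6 (29.86, others 33.46 to 34.11) were low. In replicate 2, CCL5 was high (0.39, others 0.17 to 0.19), and COL3A1 (16.08, others 18.22 to 18.58), MMP1 (11.11, others 12.01 to 12.14) and FSTL1 (66.32, others 68.63 to 69.0) were low. In replicate 3, REL (0.32, others 0.42), SERPINB2 (0.58, others 1.01 to 1.07) and S100A9 (0.0, others 0.11 to 0.13) were low. In replicate 4, KIRREL2 was high (5.15, others 4.16 to 4.21), ADAMTS2 was at 0.01 where the others were at 0, and UCA1 (4.76, others 5.2 to 5.26) and FBLN2 (4.73, others 5.45 to 5.51) were low.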

How the results depend on the processing

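The 9489 calls became 8937 to 9546 when any 1 library was left out and 7619 (local centring) to 9987 (no filter on low counts) under the other scalings, filters and tools. With a log2 fold change of at least 1 also required there were 2445. The 958 genes higher by at least 1 became 577 with local centring, 539 with limma on log2(FPKM + 0.1) and 220 on log2(FPKM + 1). The 1487 lower ones became 401 on log2(FPKM + 1). The larger pseudocount compresses folds of low genes by construction, and the cause of the other moves was not tested. TNFRSF12A lay between −0.82 and −0.61 and passed in every alternative (−0.73 to −0.61 with 1 library left out).

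With a replicate block 9241 genes were called, 4795 higher and 4446 lower, and TNFRSF12A was at −0.67. Same-numbered libraries deviated with correlations of −0.228, −0.0519, −0.0734 and 0.108, so the numbers were not taken to pair them.

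Of 181 other named genes 168 kept direction and call under every alternative. KRT1, KRT16, KRTDAP, SPRR1B and ALOXE3 are not among the 181. With local centring TRAF6 turned to 0.02, CHUK to 0.15, RELA to 0.0, CRTAP to −0.24 and FHL2 to 0.1. RELA was at −0.01 with library totals and with both limma fits. CHUK was at 0.01 with no filter and, with 1 library left out, at −0.06 to 0.04 (0.0 to 0.04 without Fn14alpha knockout replicate 1 or 4 or Fn14 knockout replicate 1 or 2). The cause was not tested.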
